A study of Mus musculus with 6 samples.

Results

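The apolipoprotein genes Apoa1, Apoa2, Apoa4, Apoa5, Apob, Apoc1, Apoc2, Apoc3, Apoc4 and Apoe were followed in RNA sequencing of mouse liver. They were taken by gene symbol from the deposited table and make up 10 of its 24034 genes. The mutant livers (HO, n = 3) carried the genotype lncenc13A/3A, which the series' design text calls a knockout. Lncenc1 encodes a long non-coding RNA. The others (WT, n = 3) were lncenc1wt/wt. All 6 libraries came from C57BL/6 mice, 25 weeks old. What the 3A allele changes and whether the mice came from 1 founder were not given in the sources used here. Nothing states that each library is a separate animal, so p-values measure the spread between these libraries. The comparison asked how the adult liver differed when Lncenc1 was mutated.

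Apolipoproteins are the protein part of the particles that carry fat and cholesterol in blood, and the liver makes most of them. Apob is the structural protein of very low density lipoprotein, and Apoa1 and Apoa2 are the main proteins of high density lipoprotein. Apoe is the ligand by which remnant particles are taken up by receptors. The small C apolipoproteins and Apoa5 set how fast lipoprotein lipase removes triglyceride: Apoc2 is its activator, Apoc3 slows clearance and Apoa5 speeds it.

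Levels are in FPKM, which scales the fragments of a gene by its length and by the library, so different genes can be compared. Libraries summed to 495570 to 518218 FPKM. The spacing of the low values gave relative depths of 19900000 to 24600000 read equivalents in HO and 19100000 to 23700000 in WT. The median FPKM was 0.742 to 0.788 in HO and 0.853 to 0.879 in WT. Lncenc1 was not analysed here, and genotypes were taken from the labels. Nnt, a gene that the C57BL/6J substrain lacks in working form, was at 1.14 ± 0.344 FPKM in HO and 31.8 ± 11.4 FPKM in WT (SD, n = 3 each). The labels give no substrain, and for every result here a difference of substrain cannot be told apart from the mutation. The hepatocyte marker Alb, albumin, had 25340 to 29600 FPKM in HO and 31200 to 33320 FPKM in WT.

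The promoters shown are those of Apoc2, Apoc4 and Apoa2. These are the genes whose 3 HO values lay below all WT values and that have an entry in the RefSeq table used. Each is the 140 bases before the annotated start, 5′ to 3′, from RefSeq on GRCm38.p6, with matches to AGGTCA, an element bound by many nuclear receptors, in capitals. Apoc2 is at chr7:19677942-19678081 on the minus strand, Apoc4 at chr7:19681461-19681600 on the minus strand, and Apoa2 at chr1:171224914-171225053 on the plus strand.
Apoc2: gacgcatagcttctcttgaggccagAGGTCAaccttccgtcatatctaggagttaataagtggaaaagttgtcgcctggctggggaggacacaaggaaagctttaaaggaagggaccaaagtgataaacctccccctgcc
Apoc4: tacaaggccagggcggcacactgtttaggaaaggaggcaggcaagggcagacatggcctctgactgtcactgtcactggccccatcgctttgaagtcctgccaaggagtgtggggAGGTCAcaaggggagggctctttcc
Apoa2: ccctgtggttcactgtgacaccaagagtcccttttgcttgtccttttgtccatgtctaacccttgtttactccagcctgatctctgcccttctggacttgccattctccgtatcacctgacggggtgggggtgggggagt
The search covered 300-base windows (250 before and 50 after each start) of the 8 genes with an entry, 12 windows in all, since Apoe, Apoa5 and Apoa2 have more than 1 listed start. Apoc1 and Apoc3 have no entry. AGGTCA, on either strand, occurred in 3 of the 12 windows (those of Apoc2, Apoc4 and the upstream start of Apoa2) and in 16.3% of all 32851 promoter windows. In Apoc2 it began 115 bases before the start and again at base 43 after it, and in Apoc4 it began 25 bases before the start. CAAAGTCCA, a form of the HNF4A element, occurred on either strand in none of the 12 windows and in 0.475% of all windows. TATAAA, read on the gene's strand, occurred in 5 of the 12 windows (of Apoa2, Apoa5, Apob and Apoe) and in 8.32% of all windows. The windows of Apoa5 overlap and hold the same TATAAA, which is counted once for each window. These are matches of letters and not shown binding sites, and a link between them and the levels was not tested.

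The apolipoprotein transcripts spanned more than 2 orders of magnitude, with Apoa1, Apoa2 and Apoe at the top in both genotypes. Over the 6 libraries Apoa2 had the rank 2 of all genes by mean FPKM, Apoa1 the rank 6 and Apoe the rank 7. In HO the order of mean levels was Apoa1, Apoa2, Apoe, Apoc1, Apoc3, Apoc4, Apoa5, Apob, Apoa4 and Apoc2. In WT it was Apoa2, Apoe, Apoa1, Apoc1, Apoc3, Apoc4, Apob, Apoa4, Apoa5 and Apoc2. Neighbours in the order whose libraries overlapped in both genotypes were Apoc3 with Apoc4 and Apob with Apoa4. In HO, Apoa1 also overlapped Apoa2 and Apoa5 overlapped Apob, and in WT, Apoe overlapped Apoa1 and Apoa4 overlapped Apoa5. Together the 10 genes held 5.90%, 5.71% and 5.70% of all FPKM in the HO libraries and 6.91%, 7.05% and 6.60% in the WT libraries. Every HO share was below every WT share. Without Apoa2, the sum was 19907 to 21022 FPKM in HO and 21487 to 21891 FPKM in WT, a log2 ratio of -0.08 in place of -0.24.

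**Figure D1:**
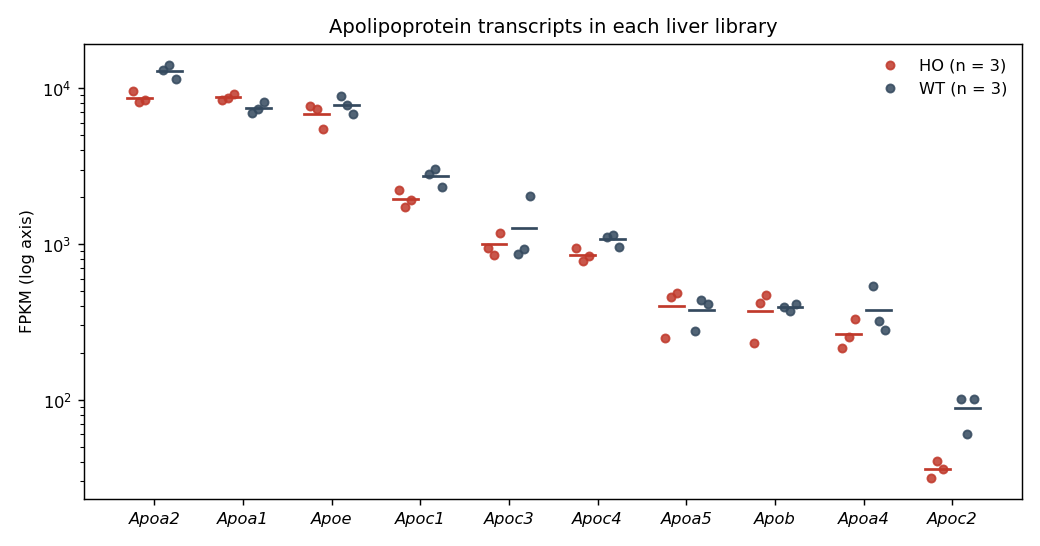
FPKM of the 10 apolipoprotein genes (log axis) in each library, ordered by mean level, with HO in red on the left of each pair and WT in blue-grey on the right. Points are libraries and bars are means of 3. All HO points lie below all WT points for Apoa2, Apoc1, Apoc4 and Apoc2, and above them for Apoa1.

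None of the 10 apolipoprotein genes passed the test across all genes, although 4 were lower in every HO library than in any WT library. The test was limma on log2(FPKM + 0.5), with Benjamini-Hochberg adjustment over 13250 genes at 0.05, and all 10 genes were above its filter of a mean of 0.5 FPKM. It called 151 genes, or 1.14% of those tested, with 0.325% higher and 0.815% lower in HO. At an unadjusted p under 0.05, 4 of the 10 genes (Apoa2, Apoc1, Apoc2 and Apoc4) were lower and none was higher, against 16.5% lower and 5.01% higher of all tested genes. The HO and WT libraries did not overlap for the same 4 genes on the lower side and for Apoa1 on the higher side. Of all tested genes, 27.9% had groups that did not overlap, 21.4% lower and 6.42% higher in HO. The log2 change was negative for 8 of the 10 genes, with a median of -0.29, against 8554 of 13250 genes and a median of -0.09 over all tested genes. Under median-of-ratios scaling the median of all genes was 0.00 and that of the 10 genes -0.19. In bulk liver, fewer cells of a type and less RNA per cell cannot be told apart.

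**Figure D2:**
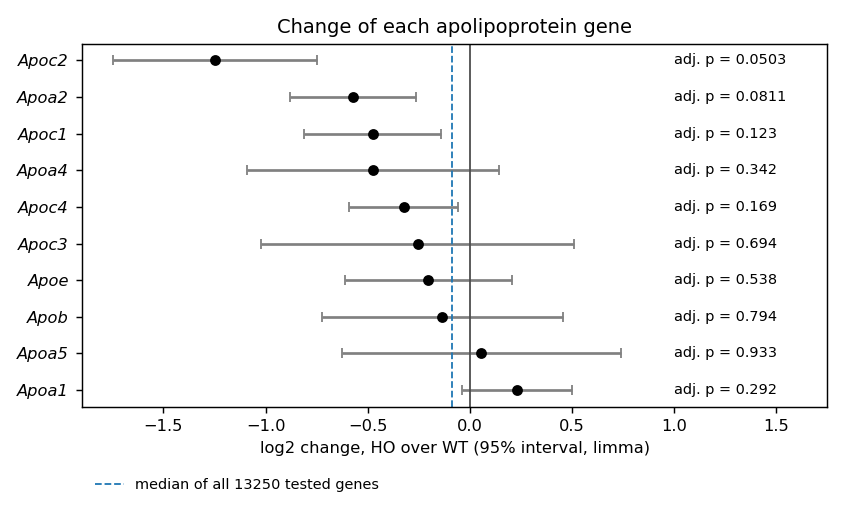
Log2 change of each gene (HO over WT) with its 95% interval from limma, the adjusted p at the right and the median of all tested genes as a dashed line. Apoc2 has the largest change of the 10, at -1.25, and no adjusted p is under 0.05.

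Among the 10 genes, Apoc2, the activator of lipoprotein lipase, had the widest difference. It had 31.4, 40.6 and 35.9 FPKM in the HO livers, against 102, 60.7 and 101 FPKM in the WT livers. The highest HO value was thus below the lowest WT value, that of WT replicate 2, which stood well under the other WT livers. The means were 36.0 ± 4.63 FPKM in HO and 88.0 ± 23.6 FPKM in WT (SD, n = 3 each). The log2 change was -1.25 ± 0.21 (SE), a ratio of 0.421 with a 95% interval of 0.297 to 0.596, and the limma adjusted p was 0.0503. By p it was gene 152 of 13250, the first one beyond the 151 called. Small changes of setting moved it across the threshold: it passed with a pseudocount of 1, a filter at 1 FPKM, robust eBayes or array weights, and without WT replicate 2 (limma adjusted p = 0.0478). Its adjusted p ranged from 0.0367 to 0.176 over the 16 alternatives. The level of Apoc2 is uncertain, because 646 of its 813 exonic bases (79.5%) are also exons of Gm44805, an annotated gene on the same strand that spans Apoc2 and Apoc4 (chr7:19671584-19681423). Gm44805 was not analysed here, and the handling of reads that fit both was not given in the sources used here.

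**Figure D3:**
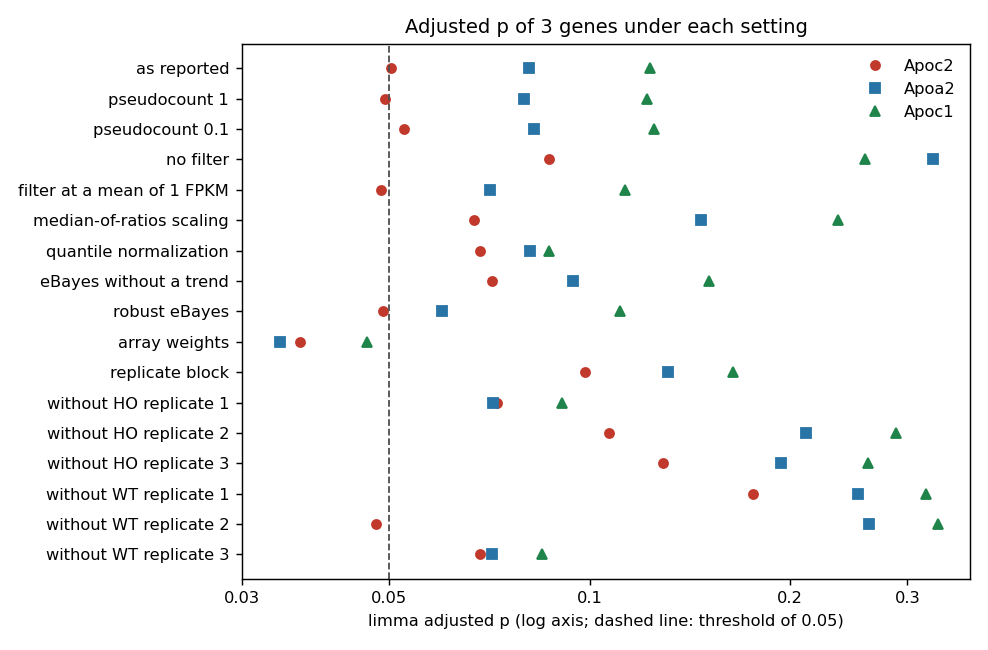
Limma adjusted p (log axis) of Apoc2, Apoa2 and Apoc1 as reported and under each of 16 alternatives, with the threshold of 0.05 as a dashed line. Apoc2 lies on both sides of the line, between 0.0367 and 0.176. All 3 genes pass with array weights.

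Apoc3, which slows the clearance of triglyceride, had 944, 852 and 1184 FPKM in the HO livers and 857, 926 and 2035 FPKM in the WT livers. The groups overlapped, and WT replicate 3 alone stood high. Its log2 change of -0.25 ± 0.33 (SE, limma adjusted p = 0.694) turned to 0.14 without that library. Apoa5, which promotes clearance, had 248, 459.7 and 488 FPKM in HO and 275, 434 and 415 FPKM in WT. In each genotype the library numbered 1 was the low one, and the groups overlapped. The change of Apoa5 was 0.05 ± 0.29 on the log2 scale (SE, limma adjusted p = 0.933), with a 95% interval for the ratio of 0.647 to 1.67. Of the 2522 exonic bases of Apoa5, 524 (20.8%) are also exons of Gm47544 on the opposite strand. The sign of the Apoa5 change turned when HO replicate 2, HO replicate 3 or WT replicate 1 was left out, with values of -0.08, -0.12 and -0.15 in that order.

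For the proteins of high density lipoprotein the log2 changes had opposite signs, and neither passed the test. Apoa2 had 9539, 8155 and 8357 FPKM in the HO livers and 13128, 14171 and 11461 FPKM in the WT livers. All HO values were below all WT values. Its means of 8684 ± 748 FPKM in HO and 12919.9 ± 1367 FPKM in WT gave a limma log2 change of -0.57 ± 0.13 (SE), with an adjusted p of 0.0811. Apoa1, which accepts cholesterol from cells, had 8465, 8630.35 and 9202 FPKM in HO and 6893, 7384 and 8176 FPKM in WT. All HO values were above all WT values, but the HO range began only just over the highest WT value. Means were 8766 ± 387 FPKM in HO and 7485 ± 647 FPKM in WT, and the log2 change of 0.23 ± 0.11 (SE) did not pass (limma adjusted p = 0.292). The ratio of Apoa1 to Apoa2, which does not depend on how libraries are scaled, was 0.887, 1.06 and 1.10 in HO and 0.525, 0.521 and 0.713 in WT. It was thus 1.02 ± 0.113 in HO and 0.587 ± 0.110 in WT (SD, n = 3 each) with no overlap. This ratio was chosen after the values were seen and is given as a description.

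Apoa4, an apolipoprotein of intestine and liver that binds to large particles, had 215, 253 and 328 FPKM in HO and 535, 321 and 279 FPKM in WT. Only WT replicate 1 stood above the rest, and the groups overlapped. The log2 change was -0.47 ± 0.26 (SE, limma adjusted p = 0.342), and -0.20 without WT replicate 1. Of the 1815 exonic bases of Apoa4, 634 (34.9%) are also exons of Gm47528 on the opposite strand, and another 34.8% of Apoa4 is shared with Gm10680, also antisense. The libraries kept strand, but the counting was not described in the sources used here, so Apoa4 and Apoa5 may hold reads of these genes. Gm47528 was at 3.82 ± 0.396 FPKM in HO and 3.90 ± 0.249 FPKM in WT, a small level beside that of Apoa4. The 3 measured markers of enterocytes, the gut cells that make Apoa4 and Apob, summed to 90.6 to 124 FPKM in HO and 151 to 171 FPKM in WT. Most of this was Fabp2, which was at 82.2 ± 19.0 FPKM in HO and 143 ± 10.3 FPKM in WT. Fabp2 is also expressed by hepatocytes, and its change did not pass (limma adjusted p = 0.0637). Cdhr5, the other tested marker, was at 22.1 ± 1.63 FPKM in HO and 16.4 ± 0.878 FPKM in WT, and Vil1 was at or under 0.177 FPKM in every library. Their part in the level of Apoa4 was not tested.

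Apob, of which each very low density particle holds a single copy, differed by less than its spread. It had 231, 416 and 470.4 FPKM in the HO livers and 396, 369 and 410.0 FPKM in the WT livers. HO replicate 1 lay below all others, while the other HO livers were above all WT livers. The log2 change of -0.13 ± 0.25 (SE, limma adjusted p = 0.794) became 0.18 without HO replicate 1. The same library held the lowest HO value of Apoa5, and in it Apob lay 0.94 and Apoa5 0.93 below the mean of the other HO libraries on the log2 scale. Apob has the longest exons of the 10 genes, 13934 bases. Between HO replicate 1 and the other HO libraries, the median log2 difference was -0.05 for 978 genes with 8000 or more exonic bases and 0.11 for 407 genes under 1000 bases. HO replicate 1 also differed from the other HO livers in serum amyloid Saa1, an acute phase apolipoprotein of high density lipoprotein. Saa1 had 111 FPKM in HO replicate 1, 2525 and 2630 FPKM in the other HO livers and 65.6 to 162 FPKM in WT. It was chosen after its values were seen, and its change between HO and WT did not pass (limma adjusted p = 0.196). The part of these differences in the Apob result was not tested. The 95% interval of the ratio of Apob ran from 0.606 to 1.37.

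Apoe had 7736, 7384 and 5452 FPKM in the HO livers and 8907, 7847 and 6802 FPKM in the WT livers. The groups overlapped, with HO replicate 3 the lowest, and the log2 change was -0.20 ± 0.17 (SE, limma adjusted p = 0.538). Without HO replicate 3 it was -0.05. Macrophages make Apoe too, and the summed level of 10 macrophage markers was 107 to 132 FPKM in HO and 123 to 207 FPKM in WT. The highest value was that of WT replicate 1, which also had the highest Apoe level. HO replicate 3, with the lowest Apoe level of all, had the highest marker sum in HO, 132 FPKM. The other WT livers, at 123 and 131 FPKM, lay within the HO range. All 10 markers had a negative log2 change, with a median of -0.31, and none passed the test. Their part in the level of Apoe was not tested.

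Apoe lies in a cluster with Apoc1, Apoc4 and Apoc2 on chromosome 7, from 19671579 to 19699188 (mm10, all on the minus strand). All of its genes had negative log2 changes, as did 8554 of the 13250 tested genes. Relb, Clptm1, Tomm40 and Gm20512, the nearest tested genes on either side, were also negative. In order of position, Apoc2 runs from 19671579 to 19677941, Apoc4 from 19678083 to 19681479, Apoc1 from 19689481 to 19692660 and Apoe from 19696109 to 19699188 (GENCODE M21). Apoc1, an inhibitor of lipoprotein uptake, had 2209, 1736 and 1907 FPKM in HO and 2811, 3029.7 and 2314 FPKM in WT. All HO values were below all WT values, and the limma log2 change was -0.48 ± 0.14 (SE), with an adjusted p of 0.123. Apoc4, a minor protein of very low density lipoprotein, had 943, 784 and 839 FPKM in HO and 1115, 1144 and 954 FPKM in WT. Here too the groups did not overlap, although the highest HO value came close to the lowest WT value, and the log2 change was -0.32 ± 0.11 (SE, limma adjusted p = 0.169). Only 119 of the 2537 exonic bases of Apoc4 (4.69%) are shared with Gm44805. Apoc2 and Apoc4 are 141 bases apart, and the ratio of Apoc2 to Apoc4 was 0.0333, 0.0518 and 0.0427 in HO and 0.0914, 0.0531 and 0.106 in WT. Apoc2 was thus lower relative to its neighbour too in HO, though WT replicate 2 came close to the highest HO library. The ratio of Apoc4 to Apoc1 was 0.440 ± 0.0123 in HO and 0.395 ± 0.0174 in WT (SD, n = 3 each), a small difference with no overlap. Both ratios were chosen after the values were seen.

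**Figure D4:**
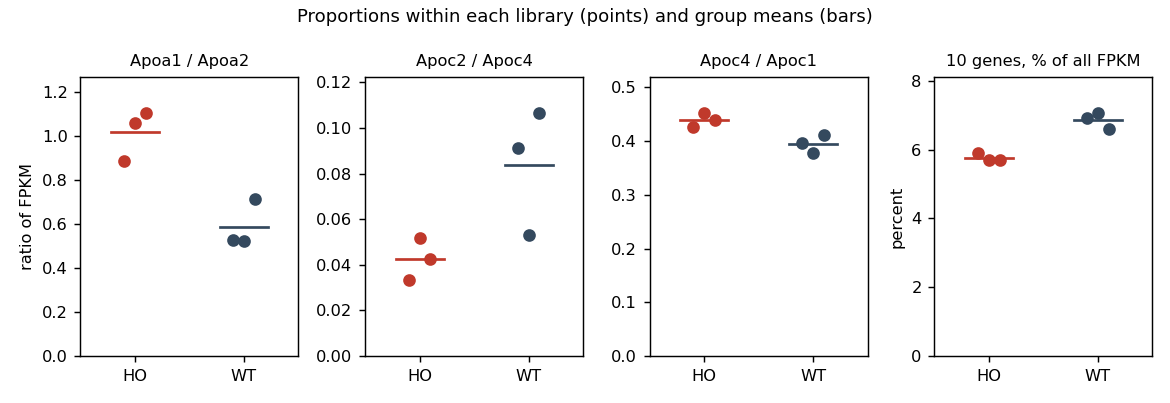
Ratios of FPKM within each library for Apoa1 to Apoa2, Apoc2 to Apoc4 and Apoc4 to Apoc1, and the share of all FPKM held by the 10 genes, with HO on the left and WT on the right of each panel. Points are libraries and bars means of 3. The groups do not overlap in any panel, and the Apoa1 to Apoa2 ratio averages 1.02 in HO and 0.587 in WT. The gene ratios shown were chosen after the values were seen, and other ratios, such as Apoc2 to Apoc1, overlapped.

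The cluster of Apoa1, Apoc3, Apoa4 and Apoa5 on chromosome 9, from 46228580 to 46271919, showed no shared direction. Apoa1 runs from 46228580 to 46230466, Apoc3 from 46232933 to 46235636 on the opposite strand, Apoa4 from 46240696 to 46243459 and Apoa5 from 46268633 to 46271919. Apoa1 and Apoa5 had positive and Apoc3 and Apoa4 negative log2 changes. The signs of Apoa5 and Apoc3 turned when certain libraries were left out. The cluster summed to 9872, 10195 and 11201 FPKM in HO and 8561, 9066 and 10905 FPKM in WT, with overlap. The chromosome 7 cluster summed to 10919, 9944 and 8235 FPKM in HO and 12935, 12081 and 10172 FPKM in WT, also with overlap. Apoa2 (chromosome 1, 171225054 to 171226379) and Apob (chromosome 12, 7977648 to 8016835) lie alone. None of the 9 tested genes that neighbour or lie inside the clusters passed (limma adjusted p from 0.264 to 0.986). Clptm1, the nearest tested gene below Apoc2, was at 20.7 ± 4.21 FPKM in HO and 25.8 ± 1.05 FPKM in WT. Tomm40, next to Apoe, was at 18.8 ± 1.33 FPKM in HO and 20.7 ± 1.05 FPKM in WT. Sik3, just before Apoa1, was at 14.2 ± 1.11 FPKM in HO and 12.3 ± 0.696 FPKM in WT.

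Of 118 tested genes in 6 lists of lipoprotein biology, 5 fell and 1 rose in HO, or 5.08% against 1.14% of all genes. The lists were drawn up with earlier results for some of these genes known, so this share is a description. The count of 6 was 1 (Cd36) without HO replicate 2, HO replicate 3 or WT replicate 2, and 2 (Cd36 and Ces1d) without WT replicate 1. Among lipases and their regulators, 2 of 13 fell and the median log2 change was -0.21. Lipg, the endothelial lipase that acts on high density lipoprotein, fell to 4.32 ± 0.553 FPKM in HO, against 11.1 ± 1.91 FPKM in WT (log2 change -1.26 ± 0.15, limma adjusted p = 0.0272, and 0.0513 with no filter). Lipa, the lysosomal lipase that frees cholesterol from ingested lipoproteins, fell to 45.3 ± 3.65 FPKM in HO, against 81.1 ± 7.09 FPKM in WT (log2 change -0.83 ± 0.10, limma adjusted p = 0.0284). The phospholipid transfer protein gene Pltp was at 14.4 ± 5.42 FPKM in HO and 38.3 ± 11.8 FPKM in WT, short of the threshold (limma adjusted p = 0.0703). With the replicate number as a block it passed (limma adjusted p = 0.0359). Angptl6 had 9.98 ± 1.11 FPKM in HO and 15.1 ± 1.81 FPKM in WT (limma adjusted p = 0.0803). Lpl, the lipase that Apoc2 activates, was chosen after its values were seen. It was at 2.27 ± 0.618 FPKM in HO and 3.57 ± 0.691 FPKM in WT, with overlap (limma adjusted p = 0.173).

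Lipoprotein receptors had 2 of 22 lower, Cd36 and Vldlr, and a median of -0.11. The fatty acid and oxidized lipoprotein receptor Cd36 had a log2 change of -1.31 ± 0.10 (limma adjusted p = 0.0109). Vldlr, which binds particles that carry Apoe, was low in both groups, at 0.267 ± 0.0743 FPKM in HO and 1.05 ± 0.183 FPKM in WT. Its log2 change of -1.01 ± 0.17 (limma adjusted p = 0.0484) depends on the pseudocount, and was -0.69 with 1 and -1.65 with 0.1. The call was lost with a pseudocount of 0.1, median-of-ratios scaling, quantile normalization, no filter or the replicate block. The limma adjusted p was then 0.0534 to 0.099. Leaving out any 1 library other than WT replicate 3 also lost it (limma adjusted p from 0.0542 to 0.177). With a filter at 1 FPKM, Vldlr was not tested. Of 23 genes of assembly and secretion, 1 fell and the median was -0.16. It was Ces1d, a triglyceride hydrolase of the endoplasmic reticulum, at 123 ± 5.96 FPKM in HO and 243 ± 30.2 FPKM in WT (log2 change -0.97 ± 0.11, limma adjusted p = 0.0245). Ces1d has close paralogs that can take its reads, so this value is uncertain. Tmem41b was at 5.83 ± 0.490 FPKM in HO and 9.28 ± 0.732 FPKM in WT (limma adjusted p = 0.0526). Tm6sf2, which helps load lipid onto very low density particles, was at 10.5 ± 0.959 FPKM in HO and 15.3 ± 0.941 FPKM in WT (limma adjusted p = 0.0635).

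Of 13 other apolipoprotein and apolipoprotein-like genes, 1 rose, none fell and the median was 0.00. It was Saa4, a constitutive serum amyloid, at 501 ± 81.1 FPKM in HO and 172 ± 59.5 FPKM in WT (log2 change 1.58 ± 0.24, limma adjusted p = 0.0372). The call was lost with no filter, with eBayes without a trend and with the replicate block (limma adjusted p = 0.0763, 0.0577 and 0.0614). Apom, which carries sphingosine 1-phosphate on high density lipoprotein, had 118, 120 and 112 FPKM in HO and 66.6, 67.5 and 92.7 FPKM in WT. The groups did not overlap, and the adjusted p was 0.0750 (limma). Apol9a was at 48.2 ± 2.73 FPKM in HO and 36.1 ± 1.60 FPKM in WT (limma adjusted p = 0.0703), and can share reads with its near-identical copy Apol9b.

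None of 33 transcription factors known to act on apolipoprotein genes passed, and their median was -0.05. At an unadjusted p under 0.05 there were 5 of them, against 21.5% of all tested genes. Foxa3 was at 44.5 ± 6.59 FPKM in HO and 25.8 ± 6.40 FPKM in WT (limma adjusted p = 0.0918). Hnf4a, an activator of most of the 10 genes, was at 203 ± 33.9 FPKM in HO and 146 ± 26.4 FPKM in WT (limma adjusted p = 0.171). Nr1h2, a sterol sensor, was at 13.5 ± 0.391 FPKM in HO and 16.8 ± 1.30 FPKM in WT (limma adjusted p = 0.138). Of 14 genes of sterol transport and high density lipoprotein formation none passed, 5 had an unadjusted p under 0.05 and the median was -0.09. Abca1, which loads cholesterol onto Apoa1, had 18.7, 32.8 and 32.1 FPKM in HO and 15.8, 14.5 and 20.7 FPKM in WT, with overlap (limma adjusted p = 0.171). Soat2, which esterifies cholesterol for secretion, was at 15.0 ± 1.24 FPKM in HO and 18.45 ± 0.872 FPKM in WT (limma adjusted p = 0.153). Soat1 was at 0.690 ± 0.274 FPKM in HO and 1.33 ± 0.391 FPKM in WT (limma adjusted p = 0.186).

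**Figure D5:**
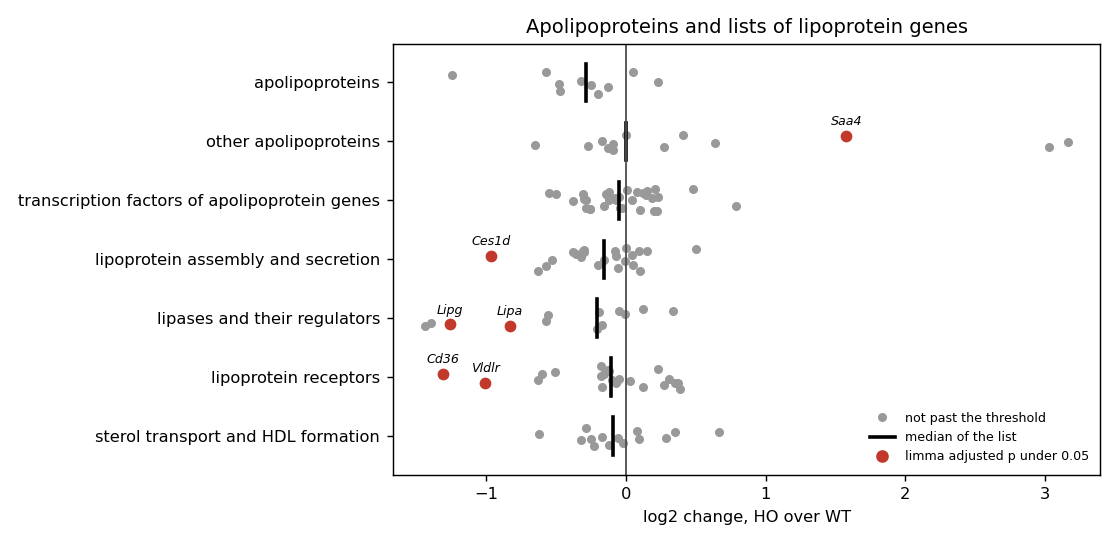
Log2 change (HO over WT) of each tested gene of the 10 apolipoproteins and of 6 lists of lipoprotein genes, with the genes at a limma adjusted p under 0.05 in red and named, and the median of each list as a black bar. No apolipoprotein of the 10 is red, and the medians of all 7 rows lie between -0.29 and 0.00.

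Over the 6 libraries the genes whose log2 levels followed Apoc2, the member with the widest range, most closely were Snx4, Psmb2 and 1110008P14Rik. The search took in 6970 genes whose mean reached 5 FPKM. The measure of likeness was Pearson's r, at 0.994, 0.993 and 0.990, and 50 genes reached more than 0.95. The libraries of one genotype share their group, so these values describe a common pattern over HO and WT and were not tested. Psmb2, a proteasome subunit, had 46.8, 49.3 and 46.4 FPKM in HO and 61.8, 54.4 and 60.7 FPKM in WT.

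Markers of other liver cells were as follows. The summed level of 7 stellate cell markers was 59.6 to 80.6 FPKM in HO and 84.7 to 105 FPKM in WT. It was 38.7 to 43.9 FPKM in HO and 41.5 to 50.6 FPKM in WT for 6 endothelial markers, and 20.1 to 23.0 FPKM in HO and 24.2 to 27.6 FPKM in WT for 5 biliary markers, of which 4 were tested. Most of the stellate sum was Dcn, at 51.3 ± 5.57 FPKM in HO and 72.1 ± 6.61 FPKM in WT. Reln and Col1a1 were also lower without overlap, while Lrat, Des, Pdgfrb and Rgs5 overlapped. Most of the biliary sum was Spp1, at 18.0 ± 1.24 FPKM in HO and 21.5 ± 1.66 FPKM in WT, while Krt19, Epcam and Sox9 overlapped. None of these stellate, endothelial or biliary markers passed. The adipocyte markers Adipoq and Plin1 were listed at 0 in all libraries. Fabp4, the only adipocyte marker tested, was at 10.2 ± 3.40 FPKM in HO and 9.48 ± 1.81 FPKM in WT (limma adjusted p = 0.882). Of 8 hepatocyte markers, 2 rose (Cps1 and Ahsg, limma adjusted p = 0.0422 and 0.0496) and none passed as lower. The median log2 change was 0.08, and 3 of the 8 changes were negative. Ttr was lower in every HO library than in any WT library, at 3724 ± 350 FPKM in HO and 5405 ± 325 FPKM in WT (limma adjusted p = 0.0737). Ahsg lost its call with quantile normalization (log2 change 0.31, limma adjusted p = 0.122), a pseudocount of 0.1, no filter, eBayes without a trend, or any 1 library left out. Cps1 lost it with no filter, eBayes without a trend, or without HO replicate 2, HO replicate 3, WT replicate 1 or WT replicate 2 (limma adjusted p from 0.0674 to 0.164). The 8 summed to 40260 to 44930 FPKM in HO and 45660 to 47980 FPKM in WT, most of it Alb. Their part in the levels of the apolipoproteins was not tested.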

How the data were processed

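Liver RNA was made into strand-preserving libraries, per the labels' protocols. FPKM values per gene and library were computed by the authors. Per the submitters' processing notes, StringTie, HTSeq, HISAT2 and DESeq2 were used with mm10, without saying which step each did. All 24034 gene identifiers matched GENCODE mouse release M21. Of the low values in each library, 19.2% to 30.3% were whole multiples of 1 read's worth, within 0.02 reads. These were too few to recover counts, so no count model was fitted.

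Filtering at a mean of 0.5 FPKM left 13250 genes, whose log2(FPKM + 0.5) values entered limma 3.58.1, run in R 4.3.3 (2 groups, no block, eBayes with a trend, two-sided, Benjamini-Hochberg). This scale understates the changes of low genes, and strongly so near or under the pseudocount. The fit was tested on simulated data. Alternatives were array weights (statmod 1.5.0), robust eBayes, eBayes with no trend, quantile normalization, scaling by median of ratios, no filter, a filter at 1 FPKM, pseudocounts of 1 and 0.1, a replicate block, and each library left out in turn. The labels give no batch.

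The members and lists were chosen with earlier results of these data known. Named genes are the 10 members, list genes past the threshold with up to 3 more per list, and cluster neighbours. A result that this rule would name is not reported here. Tables used Python 3.11.15, numpy 2.4.6 and pandas 2.3.3, and figures matplotlib 3.10.9.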

Additional observations from a re-analysis of the deposited data

How the results depend on the processing

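Of the 10 apolipoprotein genes, 1 (Apoc2) passed with a pseudocount of 1, with a filter at 1 FPKM and with robust eBayes, and 3 (Apoc2, Apoa2 and Apoc1) with array weights, where 941 genes passed in all. Leaving out 1 library gave 0 to 1. The number of all genes called, 151 as reported, was 100 with a pseudocount of 0.1, 40 with no filter, 77 with eBayes without a trend, and 6 to 262 when 1 library was left out (35 lacking HO replicate 2, 15 lacking HO replicate 3, 9 lacking WT replicate 1, 6 lacking WT replicate 2, 262 lacking WT replicate 3). It split into 67 higher and 66 lower with median-of-ratios scaling, and 56 higher and 72 lower with quantile normalization, against 43 and 108. Genes called in the lipoprotein lists, 6 as reported, were 3 with no filter, 13 with array weights and 1 to 8 when 1 library was left out. The log2 ratio of the summed 10 genes was -0.14 with median-of-ratios scaling and -0.08 without Apoa2, against -0.24, and -0.28 to -0.22 when 1 library was left out. Apob turned to 0.04 with array weights. When 1 library was left out, log2 changes ranged from -0.33 to 0.18 for Apob, -0.15 to 0.37 for Apoa5 and -0.48 to 0.14 for Apoc3. The other 7 genes kept their sign under all 16 alternatives. For the 5 genes whose groups did not overlap this had to be so when a library was left out. With the replicate number as a block, 25 genes were called in all, 2 in the lists (Cd36 and Pltp) and 0 of the 10. Lipg, Lipa, Ces1d, Saa4, Vldlr, Ahsg and Cps1 were then not called (limma adjusted p from 0.0571 to 0.106). Over all tested genes, same-numbered libraries did not deviate together (correlations of 0.066, -0.028 and 0.015). These correlations cannot show whether the numbers pair the libraries for some genes. For these shifts the cause was not tested. With 3 libraries a group, the standard errors were largest for Apoc3, Apoa5, Apoa4 and Apob (0.33, 0.29, 0.26 and 0.25 on the log2 scale).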
